A study of Homo sapiens with 8 samples.

Results

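Squamous differentiating cells were sought among HMLE cells, a human mammary epithelial line immortalised with telomerase and a viral oncogene region, and were chosen by the measured UMIs of 6 genes: S100A7, CRCT1, IGFL1, S100A8, MUC16 and MMP9. A cell was counted as gated when it held at least 1 unique molecular identifier (UMI, a captured transcript) of at least 4 of the 6, which 741 of 19818 kept cells did (3.74%, exact 95% binomial interval 3.48 to 4.01%). The 14600 cells with UMIs of at most 1 of the 6 served as comparison cells, and the 4477 cells with 2 or 3 lay between. The study followed epithelial-to-mesenchymal transition under TGF-β, with and without pyridostatin, a ligand of G-quadruplex DNA, to find intermediate cell states. Transcripts were counted by 10x Genomics 5′ single-cell sequencing in 4 mRNA libraries, each with a library of barcoded oligonucleotides that marks the culture a cell came from. By their barcode counts, libraries 1 and 2 held the culture barcodes SBO01 to SBO06, and libraries 3 and 4 held SBO07 to SBO12. The labels tie no barcode to TGF-β, pyridostatin or a time, so both classes of cells mix treated and untreated cultures that cannot be told apart. The 4 libraries thus hold 2 sets of cultures, each in 2 libraries. The labels do not say whether these are repeat loads of the same cells. The p-values therefore measure a spread that may be technical, and not that between replicate cultures. The 6 gate genes led a cluster found earlier in these same cells, as did IGFL2-AS1, GDF15, KLK10 and C15orf48. Values of these 10 genes are therefore given as description, without a test, and they are left out of the counts for gene lists and loci. S100A9, SERPINB2, KLK7, KRT13 and KRT15 were known from an earlier contrast of these cells to move with S100A8, so their tests are no independent support. They stay in the counts and medians of the gene lists and loci that hold them.

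Squamous differentiation is the path by which stratified epithelium builds a barrier. Basal cells that carry KRT5 and TP63 stop attaching to the basement membrane, strengthen their desmosomes, and make precursor proteins such as involucrin and the small proline-rich proteins, which transglutaminases crosslink into a cornified envelope. Kallikrein proteases later cut the desmosomes so that cells are shed, with antiproteases such as SLPI and elafin as brakes. S100A7, S100A8 and S100A9 are calcium-binding antimicrobial proteins of inflamed and hyperproliferative epidermis. CRCT1 lies in the epidermal differentiation complex, IGFL1 is an IGF-like secreted protein of skin, MUC16 is a membrane mucin of wet epithelia, and MMP9 is a gelatinase.

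Kept cells held at least 1000 genes and 10000 gene UMIs and at most 15% mitochondrial UMIs. The libraries held 139331790 to 179421284 gene UMIs, and the median depth of kept cells was 24076 to 39123 UMIs. Gated cells held a median of 34029 UMIs and comparison cells 28342, higher in 4 of 4 libraries (two-sided exact permutation p = 0.125, the smallest that 4 pairs allow). Mitochondrial transcripts made up a median of 1.09% of UMIs in gated and 1.59% in comparison cells, lower in 4 of 4 libraries at the same p. A deeper cell passes a gate on detection more easily: after each cell was thinned to 10000 UMIs, 227 cells passed (1.15%). Cells with several culture barcodes made up 24.3% of gated and 25.4% of comparison cells, and 27.8% and 21.1% carried no barcode. The libraries differed in this. In libraries 1 to 4, 37.3, 24.2, 18.9 and 15.7% of gated cells had several barcodes, against 29.4, 25.0, 22.9 and 22.0% of comparison cells. No barcode was carried by 17.0, 18.9, 35.9 and 37.2% of gated cells, against 18.2, 17.9, 25.4 and 24.8% of comparison cells. Cells with several barcodes stayed in unless stated. Of all cell barcode sequences, 899 occurred in several libraries, and among kept cells 198 did. Of the gated cells, 17 had one of these 198 barcodes, and 0 shared one with another gated cell.

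The gate genes differed in how they were spread over the gated cells. IGFL1 was detected in 93.0% of gated cells, S100A8 in 87.9%, MMP9 in 79.2%, MUC16 in 71.4%, CRCT1 in 58.3% and S100A7 in 42.6%. In comparison cells, whose rule allows only 1 of the genes, the shares were 10.7, 9.88, 17.2, 1.94, 1.24 and 1.18% in the same order. The SBO05 culture, which had the smallest share of gated cells, is given for reference. At a median of 21759.5 UMIs, 7.47% of its cells held IGFL1, 4.92% S100A8, 6.20% MMP9, 1.68% MUC16, 1.56% CRCT1 and 2.09% S100A7. These shares include its 6 gated cells, and the part of stray transcripts in them was not tested. The most frequent combination was IGFL1, S100A8, MUC16 and MMP9, found in 127 cells (17.1%), followed by CRCT1, IGFL1, S100A8 and MMP9 in 102 cells. All 6 genes were found in 31 cells.

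S100A7 was the gene most concentrated in few cells. Its level, in CPM (UMIs of the gene per 1000000 UMIs), was 333, 179, 549 and 222 CPM in the gated cells of libraries 1 to 4, and 0.319, 0.614, 0.387 and 0.392 CPM in comparison cells. Gated cells held 76.3% of all S100A7 UMIs of the kept cells, and 10 of them held 62.3% of the gated UMIs, with up to 1188 in 1 cell and a median of 2 in those with any. CRCT1 stood at 87.0, 86.9, 105 and 101 CPM in gated and at 0.786, 0.504, 0.684 and 0.578 CPM in comparison cells. IGFL1 stood at 439, 642, 404 and 456 CPM in gated and at 18.6, 10.97, 14.6 and 15.3 CPM in comparison cells. For S100A8 the levels were 404, 367, 487 and 363 CPM in gated and 9.47, 7.11, 8.71 and 9.88 CPM in comparison cells. These separations follow from the gate. MMP9 was the least particular of the 6, with 16.4% of its UMIs in gated cells and 207, 191, 145 and 179.8 CPM there, against 18.5, 21.9, 19.4 and 17.3 CPM in comparison cells. MUC16 had 34.0% of its UMIs in gated cells, at 57.6, 66.4, 52.5 and 54.6 CPM, against 1.29, 1.08, 1.38 and 1.45 CPM in comparison cells. The copy of S100A7 next to it, S100A7A, stood at 1.09 CPM in gated and 0.00477 CPM in comparison cells, and reads of the pair may be shared between them.

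Gated cells were most frequent in SBO06 and SBO08 and scarce in SBO01, SBO05 and SBO12. Over cells with 1 barcode, 7.60% of SBO06 (6.001 to 9.46%, exact 95% interval), 7.41% of SBO08 (5.70 to 9.43%), 6.61% of SBO02 (4.53 to 9.25%) and 6.12% of SBO11 were gated. SBO09, SBO04, SBO07, SBO10 and SBO03 followed at 4.98, 4.95, 4.46, 4.08 and 4.01%, and these neighbours do not differ beyond their intervals. SBO01 stood at 1.05% (0.612 to 1.67%), SBO12 at 0.504% (0.185 to 1.09%) and SBO05 at 0.348% (0.128 to 0.755%), all below the intervals of the other 9. By library, the share was 3.21, 2.96, 4.19 and 4.98% for libraries 1 to 4. Each culture was found in 1 pair of libraries, so the intervals carry counting error only and the shares were not tested.

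**Figure D1:**
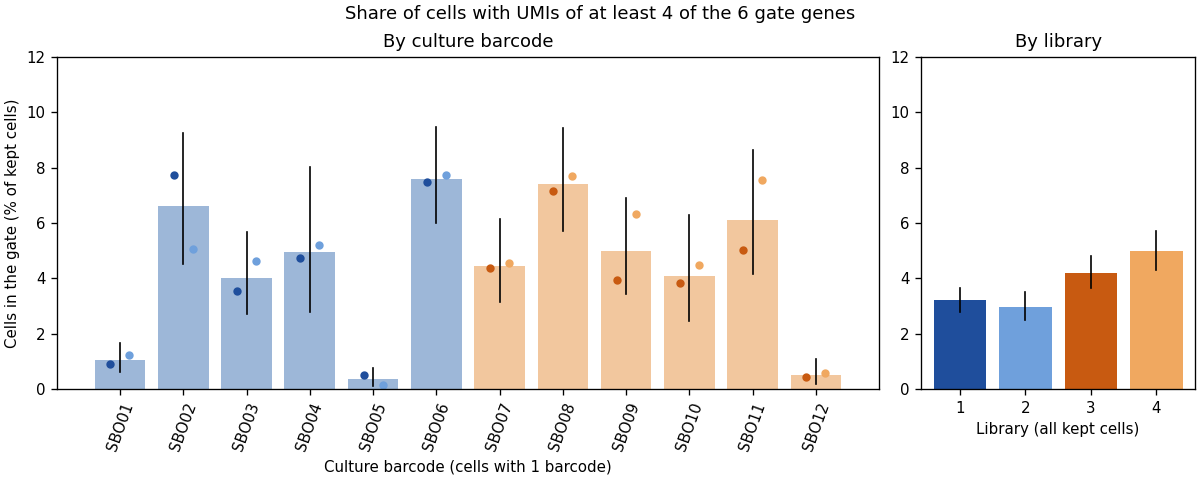
Share of kept cells that were gated, in percent, by culture barcode (left, cells with 1 barcode) and by library (right), with exact 95% binomial intervals as lines and 1 dot per library on the left. Blue shades stand for libraries 1 and 2, orange shades for libraries 3 and 4. SBO06 reaches 7.60% and SBO08 7.41%, and SBO01, SBO05 and SBO12 stay at 1.05% or less.

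The comparison of gated with comparison cells asks which transcripts outside the gate go with it. UMIs were summed per library and class, and tested by edgeR's quasi-likelihood method, blocked by library and adjusted after Benjamini and Hochberg. Of 16509 genes, 3634 (22.0%) were higher and 3683 (22.3%) lower in gated cells, together 44.3%, and in 5758 (34.9%) the 4 gated and 4 comparison values did not overlap. Because the cultures differ in their share of gated cells, equal numbers of gated and comparison cells were also drawn from the cells with 1 barcode of each culture in each library. In this culture-matched comparison 1886 of 11207 genes (16.8%) were higher and 1753 (15.6%) lower, together 32.5%. Of the genes tested in both, 3292 were called with the same sign in both fits and 7 with opposite signs. The counts for gene lists below are read against these shares. A low gene enters the test mainly through the class where it is high, so counts over the tested members are a description. In lists, genes beyond the rule for naming were named after their values were seen.

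**Figure D2:**
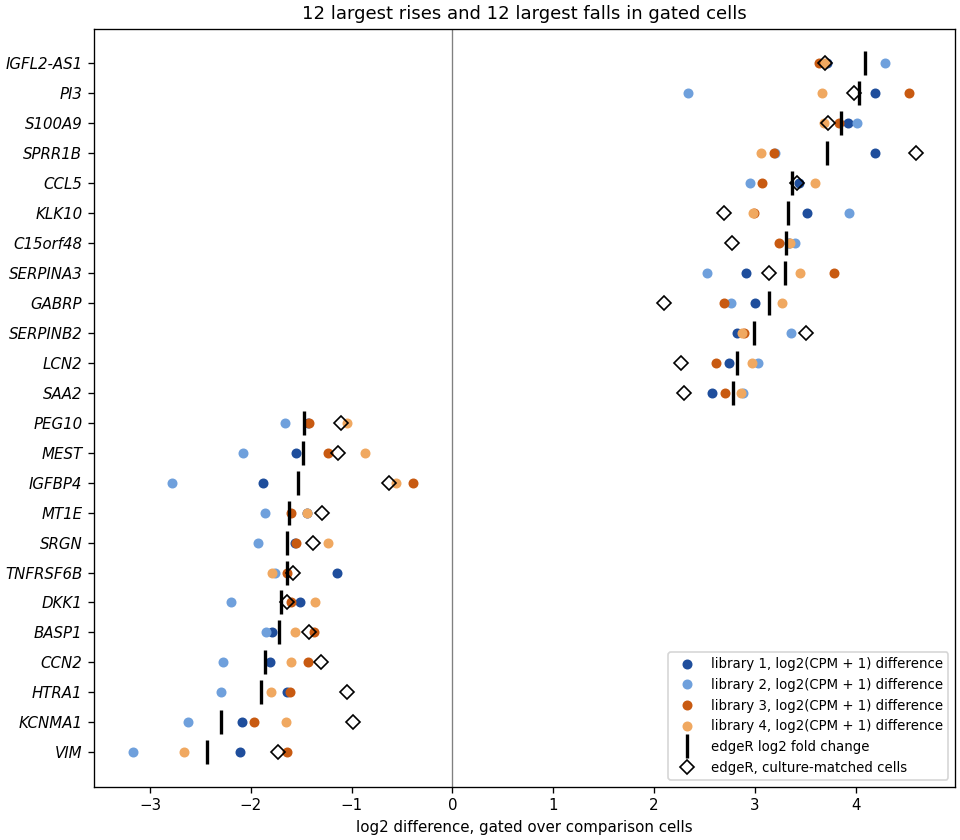
The 12 genes with the largest positive and the 12 with the largest negative log2 fold change that met the naming rule, with 1 dot per library for the log2(CPM + 1) difference of gated minus comparison cells, a bar for the edgeR fit and a diamond for the culture-matched fit. The naming rule requires every library difference to have the sign of the fit. The fits run from IGFL2-AS1 at 4.09 to VIM at -2.44. IGFL2-AS1, KLK10 and C15orf48 are shown as description.

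Transcripts of cornified envelope precursors were higher in gated cells, at low absolute levels. SPRR1B, a small proline-rich precursor that is crosslinked into the envelope, stood at 71.6, 31.5, 54.3 and 43.9 CPM in the gated cells of libraries 1 to 4, and at 2.96, 2.53, 5.07 and 4.39 CPM in comparison cells. The classes did not overlap, and library 1 was the highest of the gated values. The log2 difference was 3.71 ± 0.176 (SE, edgeR adjusted p = 5.53e-09), and 4.60 in the culture-matched fit (edgeR adjusted p = 9.20e-13). With every cell thinned to 10000 UMIs, 20.1% of gated and 2.84% of comparison cells held SPRR1B, against 35.4% and 6.73% before thinning. The 10 cells with most SPRR1B held 37.5% of its gated UMIs. IVL, the gene of involucrin, stood at 17.5, 22.1, 14.6 and 19.0 CPM in gated and at 3.40, 4.19, 4.32 and 4.14 CPM in comparison cells. It rose in all 4 libraries by 2.14 ± 0.125 on the log2 scale (SE, edgeR adjusted p = 3.37e-08), and by 1.21 when culture-matched.

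Of 48 cornified envelope genes in the files, 26 were tested, and 23 of them were higher and 1 lower, with a median log2 fold change of 2.43, beside the 22.0% of all genes that were higher. In the culture-matched fit 10 of 12 tested were higher and 1 lower, with a median of 1.39, beside 16.8%. SPRR2A had 33.8, 4.42, 11.6 and 18.5 CPM in gated and 0.492, 0.393, 1.40 and 0.803 CPM in comparison cells, and SPRR2D had 37.7, 17.7, 26.0 and 38.5 CPM in gated and 2.40, 3.42, 3.52 and 3.497 CPM in comparison cells. Both exceeded the comparison cells in every library, but 10 cells held 67.9% of the gated SPRR2A UMIs. Sequences of the SPRR2 and LCE families are close copies, so reads may be shared among their members. SCEL, which codes for sciellin, a precursor of the envelope, rose by 2.80, and TGM1, the transglutaminase of keratinocyte membranes, by 1.89. DMKN, which codes for the secreted dermokine, fell by 0.23 and was the member called lower, a call that was lost without library 3 or without library 4.

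Levels of 15 squamous differentiation markers outside the gate are given as a description, and not as an independent check of the label. KRT13 was known beforehand to move with S100A8, and low markers such as SPRR3 and FLG enter the test mainly through gated cells. KRT1 and KRTDAP, at 0.225 and 0.337 CPM in gated cells, were not tested. Of 13 tested, 12 were higher and 0 lower, beside 22.0% of all genes higher. In the culture-matched fit 9 of 9 were higher, beside 16.8%. The markers differed in level. KRT13, a keratin of wet squamous epithelium, had 140.4, 179.6, 160.2 and 192 CPM in gated and 35.0, 39.9, 53.6 and 45.8 CPM in comparison cells. KRT16, a keratin of stressed and hyperproliferative epidermis, rose by 1.34 on the log2 scale. FLG, the gene of filaggrin from the late granular layer, reached a mean of 0.761 CPM in gated and 0.146 CPM in comparison cells, and SPRR3 reached 1.85 and 0.0117 CPM. KRT10, the keratin that marks suprabasal epidermis, stood at 366 CPM in gated and 332 CPM in comparison cells and did not pass the test (log2 fold change 0.10, edgeR adjusted p = 0.0679), though it did when culture-matched (0.21).

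Promoters of 4 envelope genes are shown as examples from the epidermal differentiation complex on chromosome 1, and all 4 genes were higher in gated cells. The last promoter, that of the gate gene S100A7 from the same complex, is shown for contrast. Each is the stretch of 250 bases before the start of the gene in RefSeq (GRCh38.p14), written 5′ to 3′ on the strand of the gene. Capitals mark TGANTCA, the core element bound by AP-1 factors, which reads the same on both strands.
IVL (chr1:152908296-152908545, plus strand): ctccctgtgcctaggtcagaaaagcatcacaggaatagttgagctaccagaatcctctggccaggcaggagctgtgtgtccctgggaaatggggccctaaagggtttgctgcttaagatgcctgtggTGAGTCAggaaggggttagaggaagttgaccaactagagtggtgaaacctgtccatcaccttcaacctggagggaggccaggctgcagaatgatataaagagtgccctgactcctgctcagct
SPRR1A (chr1:152983831-152984080, plus strand): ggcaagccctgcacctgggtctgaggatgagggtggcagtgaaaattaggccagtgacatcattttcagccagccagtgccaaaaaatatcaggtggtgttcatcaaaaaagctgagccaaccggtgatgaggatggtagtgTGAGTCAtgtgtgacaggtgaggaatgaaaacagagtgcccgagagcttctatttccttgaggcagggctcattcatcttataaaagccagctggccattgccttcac
SPRR1B (chr1:153030953-153031202, plus strand): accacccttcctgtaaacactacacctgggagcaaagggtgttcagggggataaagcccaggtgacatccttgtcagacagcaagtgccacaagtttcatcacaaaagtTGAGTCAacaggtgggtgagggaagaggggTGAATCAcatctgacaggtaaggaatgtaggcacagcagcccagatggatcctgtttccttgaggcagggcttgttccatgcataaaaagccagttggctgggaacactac
SPRR3 (chr1:153001499-153001748, plus strand): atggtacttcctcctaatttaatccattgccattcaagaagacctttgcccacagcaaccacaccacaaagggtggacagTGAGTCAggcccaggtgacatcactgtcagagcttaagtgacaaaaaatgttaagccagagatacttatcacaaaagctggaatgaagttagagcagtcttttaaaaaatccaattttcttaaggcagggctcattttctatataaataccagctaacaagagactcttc
S100A7 (chr1:153460652-153460901, minus strand): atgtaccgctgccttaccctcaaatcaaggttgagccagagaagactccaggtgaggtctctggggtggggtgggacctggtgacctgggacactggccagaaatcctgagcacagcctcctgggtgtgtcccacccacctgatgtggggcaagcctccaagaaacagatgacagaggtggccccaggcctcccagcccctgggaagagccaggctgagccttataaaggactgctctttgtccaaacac
The element begins 123 bases before the start in IVL, 108 in SPRR1A, 141 and 111 in SPRR1B and 170 in SPRR3, and the S100A7 window holds none. Of the 20 tested envelope genes with an entry in the table, 12 hold the element (60.0%), beside 782 of 11623 of all tested genes with an entry (6.73%). The share was 9.21% of 2551 genes higher in gated cells and 5.44% of 2977 genes lower. The printed envelope genes do not stand for all higher ones of the complex. LCE1C, LCE1E, LCE1F and LCE3D lie there too, were higher in gated cells, and hold 0 elements. FLG, TCHH, PRR9, SPRR2A and SPRR2G, also higher and from the complex, hold 1 each. Of 4 gate genes with an entry, 1 holds it. A match of letters is not a bound site, and no binding was measured.

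Transcripts of AP-1 and immediate early genes were divided. JUN stood at 188, 225, 172 and 182 CPM in gated and at 321, 327, 269.5 and 284 CPM in comparison cells, a log2 difference of -0.69 ± 0.0477 (SE; edgeR adjusted p = 1.53e-07). FOS stood at 55.7, 47.7, 45.3 and 43.4 CPM in gated and at 92.2, 94.6, 77.5 and 75.6 CPM in comparison cells, and fell by 0.85. EGR1, an immediate early zinc finger factor, fell by 1.12. Neither JUN nor FOS overlapped between the classes. Of 15 tested AP-1 and immediate early genes, 5 were higher and 3 lower, beside 22.0 and 22.3% of all genes. The higher ones were EGR3, by 1.98 at a mean of 3.32 CPM in gated and 0.798 CPM in comparison cells, BATF2 by 0.73, ATF3 by 0.46, MAFF by 0.44 and IER3 by 0.22. When culture-matched, 1 of 12 was higher and 5 were lower, with FOSL1 at -0.33 and JUNB at -0.30 among those lower.

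Other regulators of stratified epithelium were higher. EHF, an epithelial ETS factor, stood at 13.4, 17.0, 13.5 and 10.6 CPM in gated and at 2.46, 2.70, 3.08 and 2.71 CPM in comparison cells, a log2 difference of 2.26 ± 0.141 (SE; edgeR adjusted p = 6.15e-08). ZNF750, which drives terminal epidermal differentiation, rose by 2.16, and the Notch receptors NOTCH3 and NOTCH1 by 1.82 and 1.23. OVOL1 rose by 1.38, GRHL3, a factor needed for barrier formation, by 1.17, and KLF4 by 1.10. All of these were also higher in the culture-matched fit, where ZNF750 reached 3.11. Of 29 regulators tested, 19 were higher and 2 lower, OVOL2 by -0.51 and the Notch ligand JAG2 by -0.64. Culture-matched, 15 of 23 were higher and 1 lower.

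Kallikreins were higher throughout. KLK7, the protease that cuts corneodesmosomes, stood at 431, 379, 409 and 404 CPM in gated and at 59.3, 53.9, 64.8 and 59.2 CPM in comparison cells. The classes stood far apart with little spread within them, and the log2 fold change was 2.74 ± 0.0533 (SE, edgeR adjusted p = 1.02e-12) and 2.10 when culture-matched. KLK10, given as description, had 773, 889, 736 and 711 CPM in gated and 66.7, 57.2, 91.7 and 89.3 CPM in comparison cells. KLK14 stood at 32.5, 36.6, 14.7 and 13.3 CPM in gated and at 0.418, 0.484, 0.603 and 0.705 CPM in comparison cells, so the gated values of libraries 1 and 2 were above those of libraries 3 and 4, and its fold change differed between the library pairs (edgeR adjusted p of the interaction = 9.83e-05). The same test called 725 of all genes (4.39%), 264 with a larger value in libraries 3 and 4 (1.6%) and 461 with a smaller one (2.79%). KLK5, which activates other kallikreins, rose by 1.44, KLK8 by 1.65 and KLK6 by 1.22. Without KLK10, all 9 kallikreins tested were higher, with a median of 2.74, and 7 of 7 when culture-matched, with a median of 1.65. These counts include KLK7, which was known beforehand to move with S100A8, and the median of 2.74 is its own value. The genes lie side by side on chromosome 19 (50819148 to 51084245, GENCODE 29 on hg38), where 11 of 11 tested genes other than KLK10 were higher.

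Antiproteases were higher beside the proteases. SLPI, a secreted inhibitor of neutrophil elastase, stood at 469, 491, 704 and 726 CPM in gated and at 88.2, 73.1, 139.8 and 130.0 CPM in comparison cells, a log2 difference of 2.45 ± 0.0628 (SE; edgeR adjusted p = 1.33e-11). SERPINB2, an intracellular serpin of differentiating keratinocytes, stood at 226, 264, 215 and 201 CPM in gated and at 31.0, 24.8, 28.1 and 26.6 CPM in comparison cells, and rose by 2.99, and by 3.51 when culture-matched. PI3, which codes for elafin, had 111, 22.3, 237 and 109 CPM in gated and 5.14, 3.60, 9.26 and 7.66 CPM in comparison cells. Every gated value was higher, but they differed widely between libraries, and 10 cells held 62.1% of the gated PI3 UMIs. SERPINA3, an acute-phase antiprotease, rose by 3.30, WFDC2, a whey acidic protein, by 2.11, and CST6, an inhibitor of cysteine proteases, by 2.10. Of 16 tested, 12 were higher and 0 lower, and 10 of 13 were higher when culture-matched. CSTA, an envelope-bound inhibitor, did not pass the test, at 53.7 CPM in gated and 59.9 CPM in comparison cells.

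**Figure D3:**
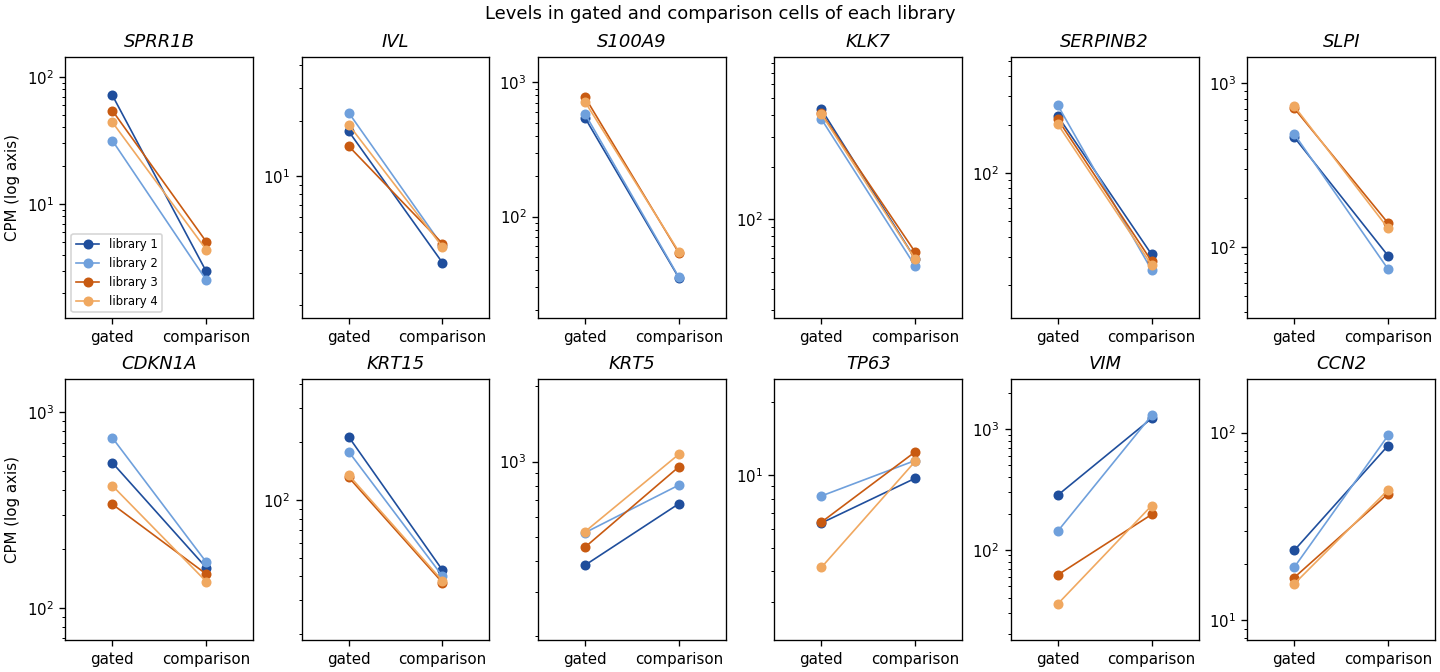
Levels of 12 genes in CPM on log axes, with gated cells left and comparison cells right and 1 line per library. S100A9 lies between 544 and 774 CPM in gated and between 34.8 and 54.6 CPM in comparison cells, and the lines of KRT5, TP63, VIM and CCN2 run the other way.

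Most other S100 genes were higher too. S100A9, the partner of S100A8 in calprotectin, stood at 544, 583, 774 and 716 CPM in gated and at 34.8, 35.2, 53.4 and 54.6 CPM in comparison cells. Its log2 fold change was 3.86 ± 0.0641 (SE, edgeR adjusted p = 1.95e-13), and 3.73 when culture-matched. In thinned cells, 77.2% of gated and 25.0% of comparison cells held it. S100P, a small S100 protein of secretory and tumour epithelium, rose by 2.74, and S100A4, better known from motile mesenchymal cells, by 1.63. The abundant members moved less: S100A10 averaged 6089 CPM in gated and 3650.4 CPM in comparison cells and rose by 0.71, and S100A11 rose by 0.65. Of 15 tested, 13 were higher. S100A2, a p63 target of basal cells, was lower by 0.46, and was not called when culture-matched (0.08).

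Inflammatory and antimicrobial transcripts accompanied the S100 genes. LCN2, a siderophore-binding antimicrobial protein, stood at 477, 499, 665 and 787 CPM in gated and at 70.4, 60.1, 108 and 99.3 CPM in comparison cells, a log2 difference of 2.82 ± 0.0661 (SE; edgeR adjusted p = 5.69e-12). SAA2, an acute-phase serum amyloid whose reads may be shared with SAA1, rose by 2.78, and SAA1 by 2.10. CCL5, a chemokine for T cells, had 136, 79.5, 88.4 and 122 CPM in gated and 11.6, 9.39, 9.60 and 9.15 CPM in comparison cells, yet only 20.9% of gated and 3.92% of comparison cells held it. The 10 cells with most CCL5 held 47.4% of the gated UMIs. CSF2, the growth factor GM-CSF, rose by 2.66, the cytokine gene TNF by 2.01 and IL1RN, an antagonist of interleukin 1, by 2.30. C15orf48, given as description, had 1517, 1138, 1192 and 1118 CPM in gated and 149, 107, 125 and 108 CPM in comparison cells. Of 29 other tested genes of the NF-kB and IL-17 type response, 23 were higher and 1 lower, which was IL6 at -0.75. Culture-matched, 14 of 21 were higher and IL6 again lower, at -1.02.

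Interferon-stimulated genes were all higher in gated cells, and fewer were when cultures were matched. IFI27 stood at 379.6, 366, 528 and 551 CPM in gated and at 113, 84.4, 180.2 and 195 CPM in comparison cells, a log2 difference of 1.69 ± 0.0834 (SE; edgeR adjusted p = 7.82e-09), and 0.98 when culture-matched. BST2, which tethers budding viruses, rose by 1.62 and by 1.09. All 25 tested were higher, with a median of 0.92, beside 22.0% of all genes. In the culture-matched fit 13 of 25 were higher and 1 lower, with a median of 0.32. IFIT1 turned its sign, with 0.51 in all cells and -0.34 when culture-matched, and IFIT2 rose by 1.21 in all cells and was not called when culture-matched.

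Keratins and attachment genes of basal cells were divided. KRT5, the basal keratin, stood at 385, 519.7, 455 and 525 CPM in gated and at 679, 806, 954 and 1071 CPM in comparison cells, a log2 difference of -0.92 ± 0.0667 (SE; edgeR adjusted p = 2.10e-07), and -0.41 when culture-matched. TP63, the master regulator of basal cells, stood at 6.34, 8.20, 6.39 and 4.16 CPM in gated and at 9.71, 11.5, 12.5 and 11.4 CPM in comparison cells (log2 fold change -0.92 ± 0.147, SE, edgeR adjusted p = 2.09e-04). With gate and counts both on thinned cells, TP63 stood at -0.45 and lost its call (edgeR adjusted p = 0.393). Neither gene overlapped between the classes. The share of cells with KRT5 was divided by library. In thinned cells of libraries 1 and 2, KRT5 was held by 85.4 and 90.2% of gated cells, against 73.3 and 71.5% of comparison cells. In libraries 3 and 4 it was held by 88.8 and 88.5% of gated cells, against 95.9 and 95.9% of comparison cells. ITGB4, ITGA6 and COL17A1, the transmembrane parts of hemidesmosomes, fell by 0.80, 0.74 and 0.68. KRT15, also a basal keratin, went the other way: it had 214, 179, 131 and 135 CPM in gated and 43.1, 40.1, 37.1 and 37.9 CPM in comparison cells, and rose by 2.00. LAMA3 and LAMB3, which code for laminin chains of the basement membrane, rose by 1.00 and 0.78. In all, 5 of 18 members were higher and 9 lower, beside 22.0 and 22.3% of all genes. Culture-matched, 6 were higher and 7 lower, beside 16.8 and 15.6%.

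Suprabasal, stress and mucosal keratins and cell junctions were higher with few exceptions. Of 14 such keratins tested, 11 were higher and 0 lower, among them KRT23, at 6.64, 10.9, 16.2 and 15.99 CPM in gated and 1.13, 0.987, 1.42 and 1.20 CPM in comparison cells. Only 13.5% of gated cells held KRT23, and 10 cells held 50.3% of its gated UMIs. KRT86 rose by 1.24, though its reads may be shared with KRT81, which rose by 0.61. Of 21 desmosome and tight junction genes tested, 19 were higher and 0 lower in both fits, with a median of 0.72, and 0.68 when culture-matched. CLDN4, a claudin of the tight junction, stood at 316, 394, 306 and 299.6 CPM in gated and at 101, 97.6, 126 and 121 CPM in comparison cells, a log2 difference of 1.53 ± 0.0974 (SE; edgeR adjusted p = 7.16e-08). DSC2, a desmosomal cadherin, rose by 1.33 and its partner DSG3 by 0.98. PKP3 and EPCAM did not pass the test, at 98.6 and 291 CPM in gated and 97.8 and 255 CPM in comparison cells.

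Membrane mucins were higher beside the gate gene MUC16. MUC4 stood at 10.4, 12.4, 8.71 and 8.69 CPM in gated and at 0.909, 0.876, 0.891 and 0.656 CPM in comparison cells, a log2 difference of 3.55 ± 0.171 (SE; edgeR adjusted p = 6.39e-09). MUC20 rose by 2.75 and MUC1 by 1.95, and CEACAM6, an adhesion molecule of mucosal surfaces, had 5.47 CPM in gated and 0.172 CPM in comparison cells. Of 17 mucins and luminal secretory genes tested, 14 were higher and 0 lower. Culture-matched, 11 of 15 were higher and 4 lower: AGR2 at -0.85, KRT7 at -0.34, KRT8 at -0.28 and KRT18 at -0.11, where KRT18 had been 0.30 in all cells. The mucins were thus higher in both fits, while simple keratins were not. Among barrier lipid genes 10 of 15 were higher and 0 lower, led by ABCA12, the lipid transporter of lamellar granules, at 2.75, and SULT2B1, which makes cholesterol sulfate, at 2.36. UGCG and ELOVL1 did not pass the test, at 73.2 and 115 CPM in gated and 69.7 and 116 CPM in comparison cells.

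IGFL2-AS1, an RNA annotated antisense to the neighbour of IGFL1, had the largest log2 fold change among the genes that met the naming rule, which asks for a mean of at least 20 CPM, and is given as description. It had 65.7, 77.4, 69.9 and 64.0 CPM in gated and 4.07, 2.99, 4.70 and 4.01 CPM in comparison cells. Whether the counting used strand is not given in the sources used here, so its reads and those of an overlapping gene may not be separable. IGFL3 rose by 3.05, and IGFLR1, the receptor of IGFL1, by 0.61. Among EGF receptor ligands TGFA rose by 1.32 and BTC by 1.68, and NRG1 fell to 2.42, 4.00, 1.90 and 1.89 CPM in gated cells, against 15.4, 17.3, 9.92 and 10.4 CPM in comparison cells. Of 13 other metalloproteinases and inhibitors tested, 5 were higher and 2 lower, beside 22.0 and 22.3% of all genes. Of these, MMP15 rose by 1.08 and TIMP2 by 0.82, and MMP2, the other gelatinase, fell by 0.75.

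Several targets of p53 were higher in gated cells. CDKN1A, the cell cycle inhibitor p21, stood at 553, 742, 339 and 422 CPM in gated and at 161, 172, 149 and 136 CPM in comparison cells. Every gated value was above every comparison value, with libraries 1 and 2 the highest. Its log2 fold change was 1.64 ± 0.106 (SE, edgeR adjusted p = 8.03e-08), and 1.92 when culture-matched. MDM2, which degrades p53, rose by 1.33, and BBC3, the death protein PUMA, by 1.55. GDF15, given as description, had 46.7, 76.8, 27.3 and 50.5 CPM in gated and 13.8, 16.1, 10.1 and 8.27 CPM in comparison cells. DDIT4, a stress-induced inhibitor of mTORC1, was lower by 0.68, and CDKN2A by 0.29. Of 20 p53, stress and senescence genes tested without GDF15, 9 were higher and 4 lower, with a median of 0.11. Of all genes, 22.0% were higher and 22.3% lower. Culture-matched, 7 were higher and 4 lower, beside 16.8 and 15.6% of all genes.

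Many cell cycle genes were lower by small amounts, and others did not pass the test or were higher. Of 42 S phase genes 23 were lower and 4 higher, with a median of -0.16, and of 50 G2 and M phase genes 28 were lower and 2 higher, with a median of -0.20, beside 22.3% of all genes lower. Culture-matched, 11 and 13 were lower, beside 15.6%, and 5 and 3 were higher. NASP, a histone chaperone, had 139.7, 146, 138 and 139 CPM in gated and 228, 242, 211 and 204 CPM in comparison cells, and fell by 0.68. CKS2 fell by 0.48. MKI67, the classical proliferation marker, averaged 254 CPM in gated and 232 CPM in comparison cells and did not pass the test (0.10, edgeR adjusted p = 0.236), but was higher when culture-matched (0.37, edgeR adjusted p = 3.16e-04). TOP2A averaged 150.0 CPM in gated and 149.6 CPM in comparison cells. CCNE2 and E2F8, genes of S phase entry, rose by 0.53 each, and neither was called with gate and counts both on thinned cells.

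Mesenchymal genes were lower, with fibronectin as an exception. VIM, which codes for vimentin, stood at 284, 143, 62.2 and 35.8 CPM in gated and at 1225, 1295, 196 and 233 CPM in comparison cells. Gated cells were lower in each library, but the classes overlapped across libraries because libraries 1 and 2 were higher in both. The log2 fold change was -2.44 ± 0.172 (SE, edgeR adjusted p = 1.71e-07), and -1.73 when culture-matched. CCN2, a matricellular TGF-β target, had 23.6, 19.1, 16.9 and 15.6 CPM in gated and 85.2, 96.4, 47.1 and 49.5 CPM in comparison cells. DKK1, a secreted Wnt inhibitor, fell by 1.70, MT1E, a metallothionein, by 1.63, and SNAI2, the transcription factor Slug, by 1.46. FN1, the gene of fibronectin, was higher in every library, with 2207, 2944, 1852 and 1902 CPM in gated and 1093, 1266, 875 and 841 CPM in comparison cells, a log2 fold change of 1.09, and 0.70 when culture-matched. Of 27 mesenchymal and matrix genes tested, 20 were lower and 4 higher, the others being S100A4, TAGLN and TGFBI. Culture-matched, 9 of 19 were lower and 5 higher, and COL1A1, which fell by 1.21 in all cells, was not called there.

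**Figure D4:**
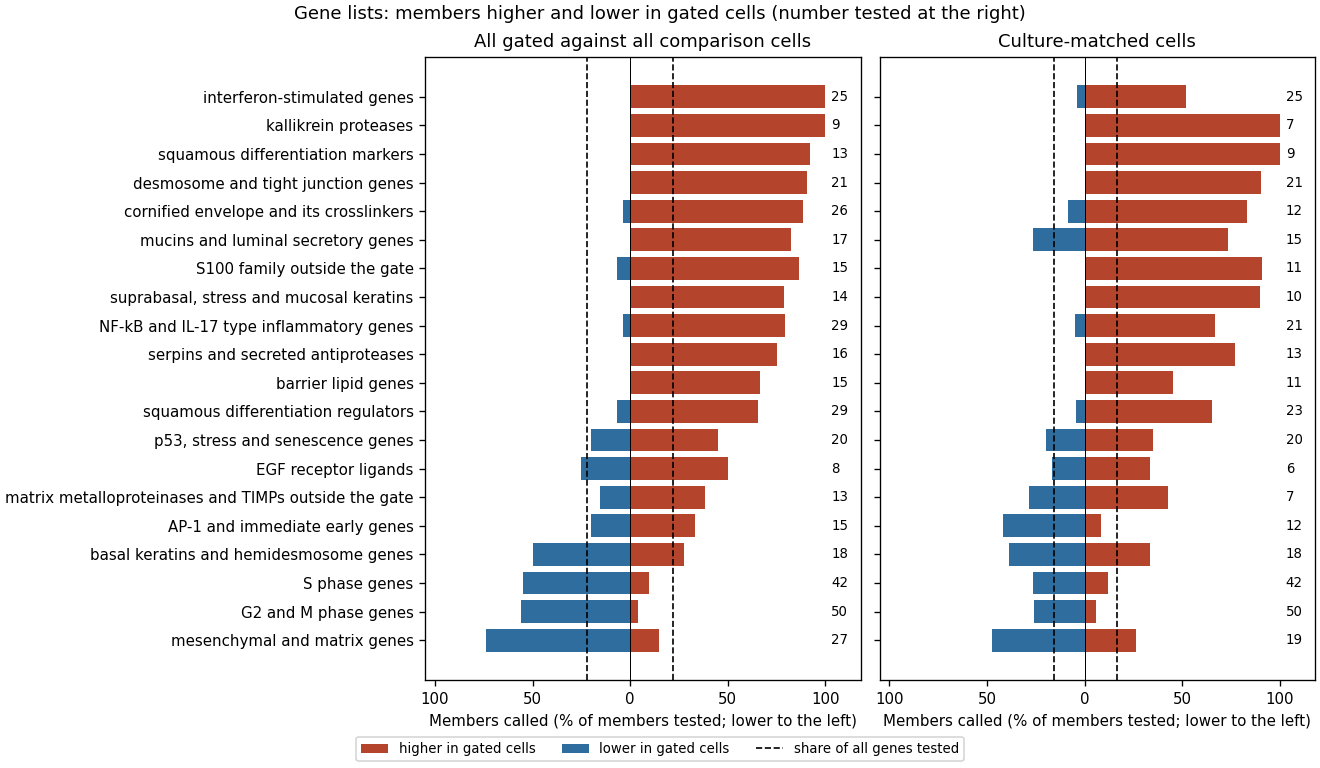
Share of the tested members of each gene list called higher (right, red) and lower (left, blue) in gated cells, in percent, for all cells and for culture-matched cells, with dashed lines at the shares over all genes tested and the number of members tested at the right. Kallikreins other than KLK10 reach 9 of 9 and 7 of 7 higher, and interferon-stimulated genes 25 of 25 and 13 of 25.

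The share of higher genes differed between 4 loci, which were chosen because they hold genes of the lists above, so the shares are a description. In the epidermal differentiation complex, from S100A10 to S100A1 on chromosome 1 (151982915 to 153632039), 29 of 34 tested genes outside the gate were higher (85.3%) and 1 lower, with a median of 2.16, beside 22.0% of all genes. Culture-matched, 13 of 14 were higher. At the whey acidic protein locus on chromosome 20 (45174876 to 45791932), which holds PI3, SLPI and WFDC2, 7 of 10 were higher. At the type II keratin locus on chromosome 12, 8 of 15 were higher and 1 lower, and 5 and 4 of 10 when culture-matched. Over whole chromosomes the share of tested genes that were higher ran from 14.5% on chromosomes 12 and 16 to 33.5% on chromosome 20.

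Pooled over libraries and cultures, most named genes followed the number of gate genes step by step. The genes counted here were called between cells with at most 1 and at least 4 gate genes. Their direction over the whole range is thus largely set by that choice, and no share over all genes is given beside them. Median depth also rose, from 26933 UMIs in cells with 0 to 34117 UMIs in cells with 4, and cultures differ in their share of gated cells. S100A9 stood at 28.4, 63.7, 132, 246, 547, 924 and 1097 CPM in cells with 0 to 6 gate genes. SPRR1B stood at 1.95, 5.92, 12.98, 21.9, 44.1, 59.7 and 117 CPM, and VIM at 1018, 410.3, 237, 161, 147, 59.7 and 99.3 CPM. Cells with 3 gate genes lie just outside the gate and cells with 4 just inside, and they numbered 1334 and 532. Of 57 named genes called higher, 45 had a higher level at every step from 0 to 5, and 56 stood higher in cells with 4 gate genes than in cells with 3, but 33 did so in each of the 4 libraries. Of 28 called lower, 26 stood lower in cells with 4 than in cells with 3, and 17 in each library. KRT13 was level across the threshold, with 143 CPM in cells with 4 and 146 CPM in cells with 3. SBSN, a secreted protein of the suprabasal epidermis, had the largest ratio, at 10.97 CPM in cells with 4 and 1.90 CPM in cells with 3. That ratio rested on library 1, at 23.95 and 1.54 CPM: without it the levels were 6.15 and 2.02 CPM, and library 2 went the other way, at 1.88 and 2.36 CPM.

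**Figure D5:**
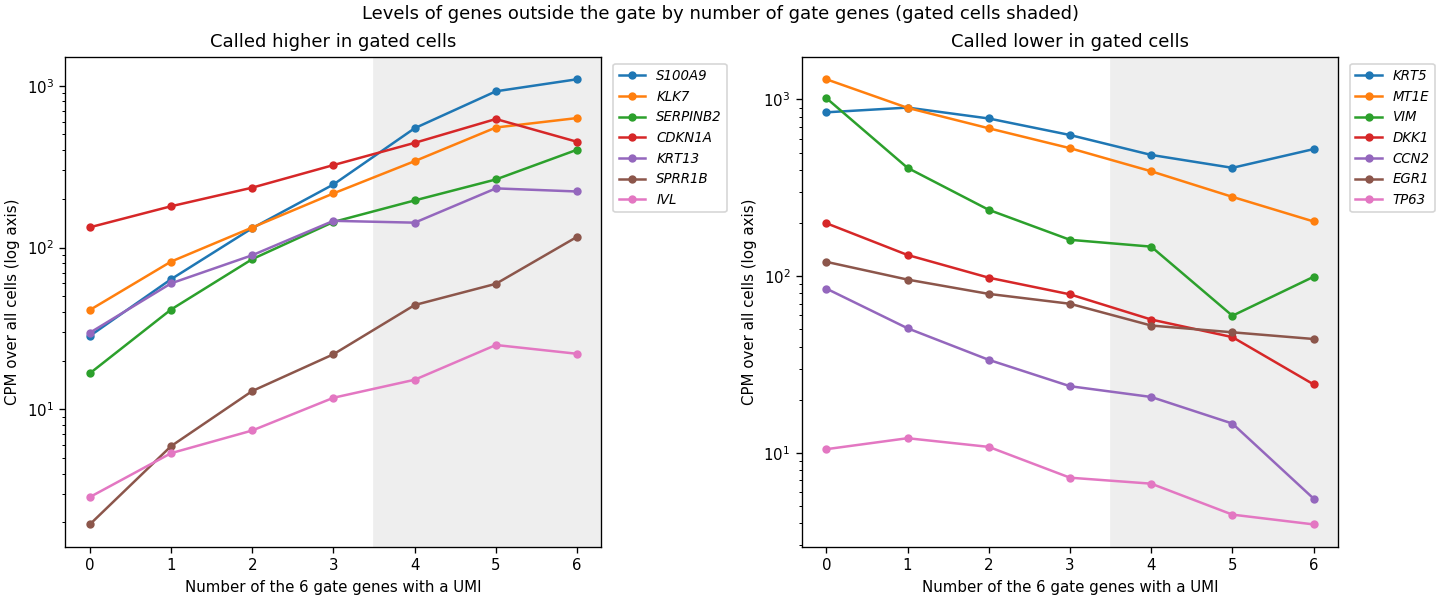
Levels of 14 genes in CPM on log axes over all cells with 0 to 6 of the gate genes, with gated cells (4 to 6) shaded. S100A9 climbs to 1097 CPM in cells with all 6 genes, and VIM lies at 1018 CPM in cells with 0 and at 59.7 CPM in cells with 5.

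Gated cells were not alike among themselves. The 154 gated cells without MMP9, which by the rule hold 4 or 5 of the other genes, stood apart from the 587 with it. In cells with MMP9, S100A9 stood at 505 CPM, LCN2 at 491, PI3 at 61.4, SPRR1B at 39.8 and CDKN1A at 443 CPM. In cells without it the levels were 1304, 1158, 401, 97.8 and 666 CPM. S100A9, LCN2, SPRR1B and CDKN1A were lower with MMP9 in 4 of 4 libraries and PI3 in 3 of 4. Single libraries carried much of this for SPRR1B and PI3. Without library 1, SPRR1B stood at 41.8 CPM with MMP9 and 56.03 CPM without it. Without library 3, PI3 stood at 60.6 CPM with MMP9 and 221 CPM without it. The 316 cells with S100A7 held more S100A9, at 1138 CPM against 314 CPM in the 425 without, more LCN2, at 909 against 413 CPM, and more PI3, at 253 against 37.8 CPM, each in 4 of 4 libraries. PI3 moved with the libraries here too, to 166 against 35.5 CPM without library 3 and to 304 against 22.7 CPM without library 4. The 432 cells with CRCT1 held more SPRR1B, at 73.8 against 20.02 CPM in the 309 without, and more SPRR2D, at 43.9 against 13.2 CPM, while S100A9 was nearly level at 677 and 647 CPM. Within the gate, S100A9, LCN2 and PI3 thus stood higher with S100A7, and SPRR1B with both S100A7 and CRCT1. This was not particular to S100A7. With S100A8, S100A9, LCN2 and PI3 stood at 737, 661 and 143 CPM, against 151, 363 and 28.7 CPM without it, each higher in 4 of 4 libraries. SPRR1B stood at 75.6 CPM with S100A7 and 33.4 CPM without it, and at 57.0 and 34.8 CPM when library 1 was left out. VIM was at 93.4 CPM in gated cells with MUC16 and 199 CPM in those without, and at 50.2 and 126 CPM when library 1 was left out. These splits are descriptions, without a test, since a cell that lacks 1 gate gene must hold others.

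For the named genes given here, the direction held in most single cultures. SBO04 had only 15 gated cells, so the values of low genes such as TP63 rest on few counts there. In the 10 cultures with at least 15 gated cells, S100A9, KLK7, SERPINB2, SPRR1B, LCN2 and CDKN1A were higher in gated cells in all 10, and VIM, CCN2, KRT5 and TP63 lower in all 10. The log2(CPM + 1) difference of S100A9 ran from 2.38 to 4.60 with a median of 3.52, and that of CDKN1A from 1.04 to 2.97 with a median of 1.80. KRT13 varied more, from -0.77 to 2.89, and was higher in 8 of 10. CCL5 was higher in 9 of 10. The cultures share libraries and are not independent replicates.

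Markers of other cell types were low, but most of the few that were tested were higher in gated cells. All 3 tested leukocyte markers were higher, with a median log2 fold change of 1.27, and 2 of 2 when culture-matched. All 3 tested endothelial markers were higher, with a median of 3.10, and 1 of 2 melanocyte and nerve markers. Of all genes tested, 22.0% were higher. Of 14 leukocyte markers 6 had 0 UMIs in gated cells, among them PTPRC, which codes for CD45, and the neutrophil receptor gene FCGR3B. A count of 0 allows a level of up to 0.112 CPM over the gated cells. The summed level of the list was 8.89 to 10.5 CPM in the gated cells of the 4 libraries and 3.74 to 4.35 CPM in comparison cells, carried by CD14 and LCP1, at 4.97 and 3.64 CPM in gated and 2.33 and 1.05 CPM in comparison cells. Of 7 endothelial markers PECAM1 had 0 UMIs in gated cells, and the sum was 3.39 to 7.14 CPM in gated and 1.07 to 1.25 CPM in comparison cells. Of 7 melanocyte and nerve markers 3 had 0 UMIs, with a sum of 2.31 to 5.04 CPM in gated and 2.11 to 2.32 CPM in comparison cells. S100A8 and S100A9 are also made by neutrophils, and the part of other cell types in their levels was not tested.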

How the data were processed

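Whole-number UMI counts per gene and cell barcode were deposited by the authors as one matrix per mRNA library, with the 12 culture barcodes counted in the same matrix. Per the submitters' processing notes, bcl2fastq 2.20.0.422, Cell Ranger 6.0.2, Seurat 4.1.0 and the build hg38 were used; their roles, any filters before deposit and whether counting used strand are not stated there.

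The members and the gene lists were chosen with earlier results of these data known. Cells were kept with at least 1000 genes, at least 10000 gene UMIs and at most 15% mitochondrial UMIs. Deposited counts were summed per library and class, without the 6 gate genes in the tests, and fitted in edgeR 4.0.16 (R 4.3.3) with TMM scaling, filterByExpr and library as a block. A gene was called at a Benjamini-Hochberg adjusted p of at most 0.05. Sums over a class cannot tell fewer expressing cells from less RNA per cell. Culture barcodes were called with HTODemux in Seurat 5.3.0 (quantile 0.99), and a seeded draw gave the culture-matched sums. No doublet caller was run on the transcripts. Cells were thinned to 10000 UMIs where stated. Intervals are exact binomial (Clopper-Pearson, 95%), and they and the limit of 3 counts for a count of 0 cover counting error only. Fits were tested on simulated data.

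The genes named by rule were the 12 with the largest change each way among those called alike in both fits, with a mean of at least 20 CPM and one direction in all 4 libraries, up to 4 per list with a mean of at least 5 CPM, the gate genes, and 8 genes that led the cluster or score end the gate came from. Other genes were named after their values were seen. Leaving out libraries in the levels by number of gate genes and within the gate was chosen after seeing the data. Gene positions are from GENCODE 29 and promoters from RefSeq.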

Additional observations from a re-analysis of the deposited data

Results flagged for a closer look

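In 5 genes the gated minus comparison difference of 1 library stood apart from those of the other 3, by Dixon's ratio of gap to range at its 95% critical value. Chance alone gives about 1 such case in 20 groups, and 110 groups were examined. SPRR1B had a ratio of 0.872, with a log2(CPM + 1) difference of 4.20 in library 1 against 3.06 to 3.21 in the others. IGFL2-AS1 had a ratio of 0.880, with 4.30 in library 2 against 3.64 to 3.72. The ratio was 0.874 for SERPINB2 and 0.948 for MUC1, both highest in library 2, and 0.830 for CSF2, highest in library 1.

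In 725 of 16509 genes (4.39%) the change in gated cells differed between libraries 3 and 4 and libraries 1 and 2, which hold different cultures, by edgeR's test of the interaction. Among named genes the log2 fold change was smaller in libraries 3 and 4 by the following differences: KLK14 -1.88, ZNF750 -1.04, SPRR1B -0.90, S100P -0.79, OVOL1 -0.71, CDKN1A -0.58, CLDN4 -0.57, KRT86 -0.54, KLK8 -0.54 and MDM2 -0.50. Smaller differences of the same sign were found for LAMA3 at -0.46, KRT15 at -0.45, SULT2B1 at -0.44, IFI27 at -0.44, DSC2 at -0.41, OCLN at -0.40, S100A9 at -0.26 and WFDC2 at -0.25. KRT5, which was lower in gated cells, had a difference of -0.36, so that it was further down in libraries 3 and 4. Positive differences were found for IGFBP4 at 1.73, SERPINA3 at 0.91, MEST at 0.69, TIMP1 at 0.64, SMPD1 at 0.59 and EGR1 at 0.36. The part of the culture makeup in these differences was not tested.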

How the results depend on the processing

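Of 87 named genes outside the 4 given as description, 74 kept their direction and side of the threshold in each alternative that tested them. Over 1560 pairs of gene and alternative, 27 lost a call, 3 gained one and 6 changed sign. The sign changes were UGCG, never called, at -0.021 with no low count filter, -0.0085 to 0.047 when 1 library was left out, -0.11 culture-matched, -0.0037 in cells with 1 barcode without SBO05 and -0.091 without SBO01, SBO05 and SBO12, and ELOVL1 at 0.028 with at least 3 gate genes. The 7317 calls became 3678 with gate and counts both on thinned cells, and 3639 culture-matched. The 3639 culture-matched calls became 733 on thinned cells and 1561 with DESeq2, and the 725 pair differences became 86 on thinned cells. The cause was not tested, but thinning removes most of the counts and gated cells. The gated share of 3.74% became 1.05% with at least 5 genes, 10.5% with at least 3 and 1.15% on thinned cells. Leaving out 1 library gave 6122 to 6524 calls, and 2769 to 3402 culture-matched. Both classes come from the same library, so library was the replicate block; without the replicate block 6004 genes were called, 2831 culture-matched, and 8 of the mesenchymal genes were lower in place of 20. With no low count filter the median log2 fold change of all genes was -0.12.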

Other observations

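Some further genes with large differences were chosen after their values were seen, and form no fixed list. CRABP2, which carries retinoic acid in the cell, stood at 222, 241, 239.5 and 269 CPM in gated and at 55.0, 53.03, 60.9 and 57.8 CPM in comparison cells, a log2 fold change of 2.06 (edgeR adjusted p = 1.46e-11). RARRES1, named for its response to retinoid receptors, rose by 2.66. Both were also higher when culture-matched, at 1.94 and 1.98. TINCR, a noncoding RNA needed for epidermal differentiation, stood at 92.3, 111, 102 and 97.0 CPM in gated and at 17.0, 15.4, 19.4 and 19.0 CPM in comparison cells, and rose by 2.47. AQP3, the glycerol and water channel of epidermis, rose by 2.06, and NECTIN4, an adhesion molecule of skin, by 2.11. None of these 5 genes overlapped between gated and comparison cells.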
